A study of Mus musculus with 2 samples.

Results

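Epithelial and mesenchymal cells splice a shared set of cell adhesion and cytoskeleton genes in different ways, and 8 such genes were followed here in embryonic mouse lung: Ctnnd1, Enah, Arhgef11, Slk, Numb, Epb41l5, Ralgps2 and Magi1. They were chosen by name from what is known of epithelial and mesenchymal splicing, and all of their transcripts were taken, which gave 94 transcripts of the 103639 in the transcript tables and 8 genes of the 43346 in the gene tables. The tissue was whole lung of embryos of the mouse strain B6NCrl at day 15.5, males and females pooled, with no treatment or mutant allele named. The single group held 2 libraries of total RNA, with the lungs of 78 embryos pooled for replicate 1 and those of 62 for replicate 2. No condition was compared, so the question is which forms of these genes the lung carried and how far the libraries differed. Each pool was sequenced as a single library, so the spread between the libraries takes in the pool and the library preparation.

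In epithelial cells the RNA-binding proteins Esrp1 and Esrp2 direct the splicing of a set of exons, and their loss in mesenchymal cells lets the other forms appear. Many of the exons keep the reading frame, so that the forms differ in short stretches of protein that bind partners at cell junctions or in the actin cytoskeleton. At this age lung holds branching epithelium inside mesenchyme with a growing vessel bed, so a whole-tissue library mixes the forms of all of these cells. In such bulk samples, fewer cells of a type and less RNA per cell cannot be told apart.

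The exons and coding ends on which the results turn are shown first. The sequences are from GENCODE M21 transcripts on GRCm38, read 5′ to 3′ on the strand of the gene. All are coding. The starts of Ctnnd1 are shown because they separate its long and short proteins, and capitals mark the start codon.
Ctnnd1, the first start, chr2:84624464, minus strand: ATGgacgactcagaggtggagtcgaccgcc
Ctnnd1, the third start, chr2:84620951, minus strand: ATGcaggagccaggacagattgtggaaacc
Ctnnd1, the fourth start, chr2:84616930, minus strand: ATGattggtgaagaggtgccgcctgatcag
The cassette exons are shown because their presence or absence defines the forms, with the exon in capitals and 15 bases of each neighbouring exon in lower case. Each of those printed has a length that is a multiple of 3 and holds 0 stop codons in frame.
Ctnnd1 63-nt exon, chr2:84605184-84605246, minus strand: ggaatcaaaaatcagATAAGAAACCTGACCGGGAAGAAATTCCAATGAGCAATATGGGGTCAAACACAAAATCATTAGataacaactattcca
Ctnnd1 18-nt exon, chr2:84612532-84612549, minus strand: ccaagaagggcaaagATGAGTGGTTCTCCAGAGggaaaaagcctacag
Ctnnd1 87-nt exon, chr2:84603188-84603274, minus strand: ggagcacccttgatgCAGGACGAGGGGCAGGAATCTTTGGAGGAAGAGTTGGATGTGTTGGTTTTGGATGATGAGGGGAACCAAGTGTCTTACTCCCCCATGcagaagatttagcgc
Enah 63-nt exon, chr1:181911597-181911659, minus strand: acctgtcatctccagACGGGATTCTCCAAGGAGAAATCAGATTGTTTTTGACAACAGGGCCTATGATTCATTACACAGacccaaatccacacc
Slk 93-nt exon, chr19:47627648-47627740, plus strand: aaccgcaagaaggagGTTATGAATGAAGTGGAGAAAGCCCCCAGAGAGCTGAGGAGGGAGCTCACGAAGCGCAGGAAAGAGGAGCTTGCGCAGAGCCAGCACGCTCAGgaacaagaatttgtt
Numb 147-nt exon, chr12:83797197-83797343, minus strand: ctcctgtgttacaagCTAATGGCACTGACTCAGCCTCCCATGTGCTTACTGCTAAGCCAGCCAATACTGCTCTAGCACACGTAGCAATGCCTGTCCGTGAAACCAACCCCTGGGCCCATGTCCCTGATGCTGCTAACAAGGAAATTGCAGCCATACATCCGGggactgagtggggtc
Numb 33-nt exon, chr12:83825259-83825291, minus strand: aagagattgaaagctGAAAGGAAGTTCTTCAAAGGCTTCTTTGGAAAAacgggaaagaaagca
Arhgef11 120-nt exon, chr3:87695398-87695517, plus strand: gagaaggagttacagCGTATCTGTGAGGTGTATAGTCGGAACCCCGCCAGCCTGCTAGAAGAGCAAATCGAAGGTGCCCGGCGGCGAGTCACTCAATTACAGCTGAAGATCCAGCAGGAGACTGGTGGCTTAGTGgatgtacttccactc
Arhgef11 30-nt exon, chr3:87718229-87718258, plus strand: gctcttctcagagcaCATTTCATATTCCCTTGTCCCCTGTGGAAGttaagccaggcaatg
Ralgps2 78-nt exon, chr1:156821387-156821464, minus strand: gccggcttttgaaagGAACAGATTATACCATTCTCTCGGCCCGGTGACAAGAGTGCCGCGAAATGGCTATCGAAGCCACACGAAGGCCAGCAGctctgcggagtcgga
Magi1 84-nt exon, chr6:93704277-93704360, minus strand: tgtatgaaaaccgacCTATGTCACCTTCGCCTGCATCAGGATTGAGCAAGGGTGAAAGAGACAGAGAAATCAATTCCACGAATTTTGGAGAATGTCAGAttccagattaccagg
Magi1 36-nt exon, chr6:93769508-93769543, minus strand: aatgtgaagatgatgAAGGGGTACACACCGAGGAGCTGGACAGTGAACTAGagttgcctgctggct
The last coding bases of the Epb41l5 forms are shown because its proteins part there, with the stop codon in capitals.
Epb41l5 short end, chr1:119595882, minus strand: tctggccgtgcagccatgaccgagataTGA
Epb41l5 long end, chr1:119549132, minus strand: cagaagtgcttgctgactactgagctcTGA

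The libraries held 40395849.9 and 36601054.1 estimated reads, of which 39530296.9 and 35733530.1 fell in genes. Levels are in TPM, a transcript abundance corrected for length and library size, and are given as the mean ± SD of the libraries (n = 2), with values per library in the order replicate 1 and replicate 2. A gene or transcript was called detected from 1 TPM in both libraries. All 10 listed epithelial markers, all 6 endothelial markers and 11 of 12 mesenchymal markers were detected, Twist1 being the mesenchymal marker under the minimum. The summed TPM of the epithelial list was 8421 and 7322 and that of the mesenchymal list 4416 and 4180. Sftpc, the surfactant gene of distal epithelium, made up 6881 and 5864 TPM of the epithelial sum. Lists of markers of neighbouring organs differed more: the median log2 ratio of replicate 2 over replicate 1 was 2.29 for 6 liver genes, 1.67 for 6 heart and skeletal muscle genes and -2.34 for 7 thymus and T cell genes. The muscle list was split: the ratio was 1.49 to 2.28 for Myl2, Myl3, Myh7 and Acta1, but 0.03 for Actn2 and -0.21 for Tnnt2. The summed TPM was 32.8 and 152 for liver, 246 and 396 for muscle, and 58.9 and 14.0 for thymus. None of these listed genes was at 0 in both libraries, and their part in the values of the 8 genes was not tested.

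All 8 genes were detected. Ralgps2 (ENSMUSG00000026594.10, chr1:156804166-156939626), an exchange factor for the small GTPase Ral, was the highest at 69.5 and 58.2 TPM (63.9 ± 8.03). Ctnnd1 (ENSMUSG00000034101.10, chr2:84600071-84650765), which encodes p120 catenin, the protein that holds cadherins at the cell surface, followed at 56.3 and 51.9 TPM (54.1 ± 3.11). Both lay above most expressed genes, since 81.5% and 78.2% of the 14583 detected genes had lower mean levels. The rank of Ralgps2 holds for TPM and rests largely on a short model described below. By estimated reads Ralgps2 had 3613 and 2933, and Ctnnd1 more at 7541 and 6471.

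Epb41l5 (ENSMUSG00000026383.10, chr1:119545037-119649000), a FERM-domain protein of the Crumbs polarity complex, was at 38.7 and 36.5 TPM (37.6 ± 1.56). Numb (ENSMUSG00000021224.10, chr12:83794034-83921934), an endocytic adaptor that restrains Notch signalling, was at 34.6 and 30.7 TPM (32.7 ± 2.81). These are in the upper part of the range of detected genes, whose median was 17.2 TPM. Arhgef11 (ENSMUSG00000041977.13, chr3:87617559-87738034), an activator of RhoA, was at 15 and 12.7 TPM (13.9 ± 1.60). Slk (ENSMUSG00000025060.10, chr19:47579678-47645246), a kinase of the cytoskeleton, was at 11.5 and 12.6 TPM (12.1 ± 0.764). Enah (ENSMUSG00000022995.12, chr1:181896384-182019990), the Ena/VASP protein Mena that lengthens actin filaments, was at 10.6 and 10.2 TPM (10.4 ± 0.311). Magi1 (ENSMUSG00000045095.12, chr6:93675455-94283917), a scaffold of tight junctions, was the lowest at 6.48 and 6.40 TPM (6.44 ± 0.0566), with 27.8% of detected genes below it.

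The order of the 8 genes was the same in both libraries. Neighbours in it were separated beyond the deposited intervals in both libraries only for Ctnnd1 above Epb41l5 (1.44-fold in mean TPM), Numb above Arhgef11 (2.35-fold) and Enah above Magi1 (1.61-fold). Ralgps2 and Ctnnd1, Epb41l5 and Numb, Arhgef11 and Slk, and Slk and Enah had intervals that overlapped in at least 1 library. After TMM scaling, the log2 ratio of replicate 2 over replicate 1 ran from -0.19 for Ralgps2 to 0.20 for Slk. A gene or transcript was called apart when its mean was at least 1 TPM, its scaled TPM differed 2-fold or more and its intervals did not overlap. Of the 8 genes 0 were apart, against 1.07% of all 15152 genes tested, and of the 35 of their transcripts with a mean of at least 1 TPM 0 were apart, against 0.882% of 33125.

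**Figure D1:**
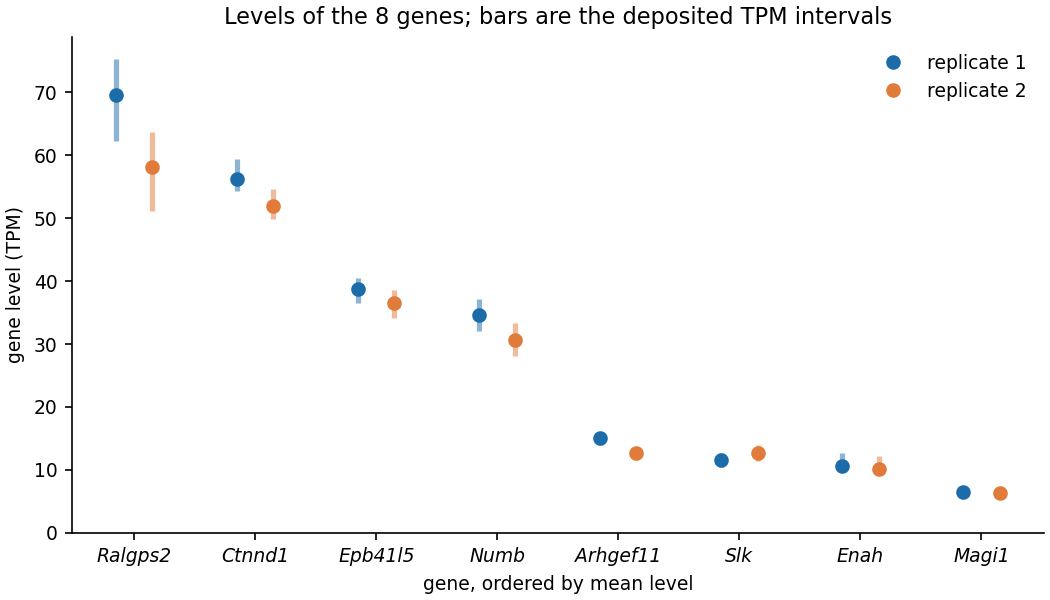
Level of each gene in TPM (vertical axis, linear from 0) for the 8 genes ordered by mean level (horizontal axis). Points are the libraries and bars their deposited intervals; Ralgps2 is highest at 69.5 and 58.2 TPM and Magi1 lowest at 6.48 and 6.40 TPM.

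Most annotated transcripts of the 8 genes had a mean under 1 TPM, as did most transcripts of all genes. A mean of at least 1 TPM was reached by 35 of the 94, and by 33125 of the 103639 in all. Of the 94 transcripts, 33 were detected, 31 were at 0 TPM in both libraries, and 23 held 10% or more of the TPM of their gene in at least 1 library. The transcript with the largest share was the same in both libraries for 8 of 8 genes, as it was for 92.4% of the 9416 detected protein-coding genes with several transcripts. Its interval lay above that of the runner-up in both libraries for 7 of the 8, the exception being Magi1.

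**Figure D2:**
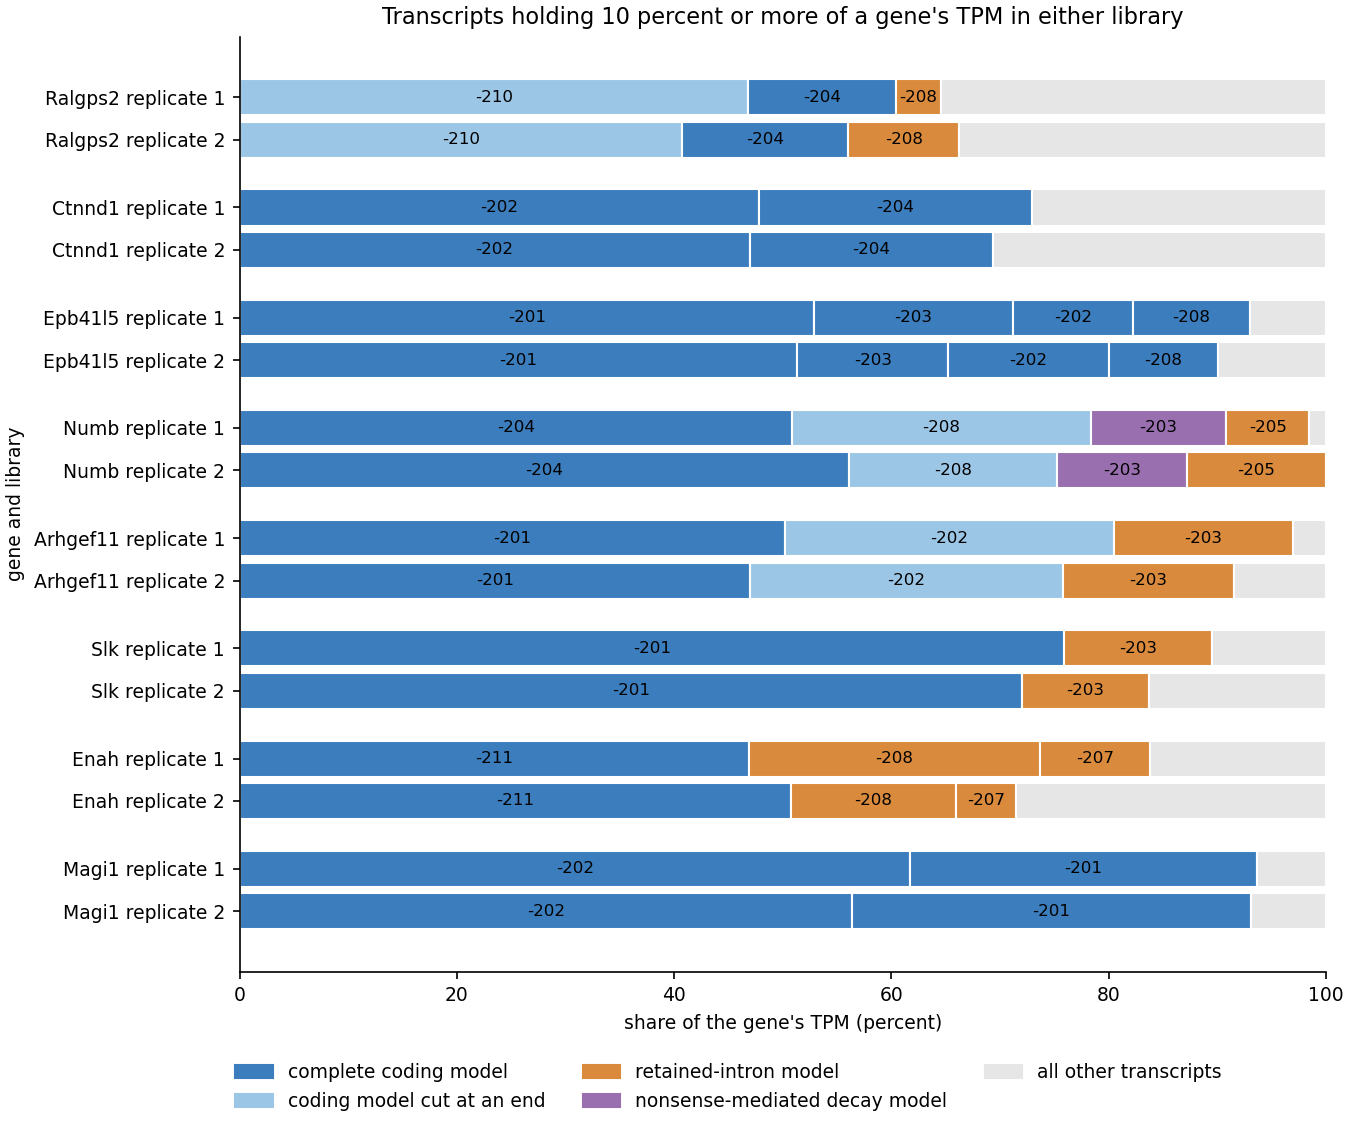
Share of the TPM of each gene in percent (horizontal axis) held by transcripts with 10% or more in either library, for each gene and library (vertical axis), coloured by the kind of annotated model; grey is all other transcripts. The leading transcript is the same in both libraries for each gene, from Ralgps2-210 at 46.8% and 40.7% to Slk-201 at 75.9% and 72.0%.

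Ctnnd1 was carried by long and short forms together. Its main transcript, Ctnnd1-202, reads from the first start codon and held 47.8% and 46.9% of the TPM of the gene (26.9 and 24.4 TPM). Next came Ctnnd1-204, which reads from the third start codon, with 25.2% and 22.4% (14.2 and 11.6 TPM). The ratio of Ctnnd1-202 to Ctnnd1-204 was 1.90 and 2.10, and their intervals did not overlap in either library. The other 28 transcripts together held 27.1% and 30.7%, and 18 of the 30 transcripts of the gene were at 0 in both libraries.

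Grouping the same transcripts by start codon sums their TPM by the protein form they encode, and no protein was measured. Proteins from the first start are known from mesenchymal cells and those from the third start from epithelial cells. Complete coding models with the first start held 57.8% and 56.7% of the coding TPM (57.3 ± 0.747), and those with the third start, 101 codons downstream, held 34.7% and 33.7% (34.2 ± 0.669). The fourth start, 323 codons downstream of the first, held 7.25% and 9.52%. The second start, 54 codons downstream of the first, held 0.264% and 0%. With intervals at their opposite ends the second start reached at most 14.7% and 15.6%, and posterior mean TPM put it at 3.41% and 4.59%. So both of the forms tied to a cell type were present at similar shares in both libraries, the first-start form being the more abundant by TPM. Taking the interval of every transcript at its opposite ends widened the share of the first start to 36.9% to 79.1% in replicate 1 and 38.6% to 75.4% in replicate 2, and that of the third start to 16.6% to 52.7% and 16.9% to 47.8%. These ranges overlapped.

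The internal exons of Ctnnd1 differed widely in use. Inclusion is given here as the percent of the TPM of transcripts with and without an exon that falls to transcripts with it. Only transcripts that have the exon between the same neighbouring exon edges, or that join those edges, are counted. The 63-nt exon was included at 51.3% and 52.9% (52.1 ± 1.16), the 18-nt exon at 32.9% and 30.4% (31.7 ± 1.75), and the 87-nt exon, which changes the tail of the protein, at 0.789% and 1.45% (1.12 ± 0.466). With intervals at their opposite ends the 87-nt exon reached at most 11.1% and 13.8%, and posterior mean TPM put it at 3.32%. The 289-nt exon, which holds the first start, was included at 59.3% and 60.8% (60.1 ± 1.08), and a 180-nt variant of it at 0% in both libraries with upper ends of 24.9% and 32.3%. The exons were tied to the starts in the annotated models: among first-start transcripts, those with the 63-nt exon held 11.3% and 13.6% of the TPM, whereas among third-start transcripts they held 100% in both libraries. The 18-nt exon was in 12.4% and 13.6% of the first-start TPM and in 76.9% and 69.2% of the third-start TPM. Of the 10 first-start models 6 have the 63-nt exon, and of the 5 third-start models 4 have it. Short reads cannot join a start to an exon so far away, so these pairings rest on which models the annotation holds and how reads were divided among them.

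The cadherins that p120 catenin binds were present for both tissue layers. Of the 14 listed partners and relatives of p120 catenin, 14 were detected, from Rhoa at 431 and 404 TPM down to Zbtb33 at 3.09 and 3.22 TPM. Cdh1, the epithelial cadherin, was at 98.6 and 88.5 TPM. Cdh2, the neural cadherin that mesenchymal cells also use, was at 23.2 and 23.7 TPM. Cdh11, a cadherin of mesenchyme, was at 179 and 176 TPM, and Cdh5, that of endothelium, at 62.9 and 59.1 TPM.

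Enah carried little of its epithelial exon. The 63-nt exon, known as exon 11a and used in epithelial cells, was included at 6.12% and 7.47% (6.79 ± 0.960). A single transcript, Enah-202, had it, at 0.34 and 0.47 TPM and 31.1 and 39.9 estimated reads, whereas the main form Enah-211 without it was at 4.97 and 5.16 TPM. With intervals at their opposite ends the inclusion ran from 2.25% to 10.7% in replicate 1 and from 2.90% to 12.8% in replicate 2. Enah-202 is 3572 nt long and Enah-211 11229 nt, and beside the exon their models differ in 8312 nt, so the ratio compares transcripts with unlike ends as well as an exon.

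The other variable exons of Enah were used nearly always or nearly never. A 111-nt exon was included at 100% in both libraries. A 57-nt exon and a 12-nt exon of Enah-204 were at 0% in both, with upper ends of at most 3.17%, and a 12-nt exon of Enah-205 was at 3.98% and 2.70%. The lower ends for the exon of Enah-205 were near 0 in both libraries and its upper ends 5.07% and 3.44%, and posterior mean TPM put it at 1.59%.

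Models with a retained intron held 47.6% and 40.9% of the TPM of Enah, where the median over the 9416 genes was 0.713% and 0.549% and the 90th percentile was 28.1%. Enah-208, a single-exon model of 1890 nt inside intron 11 of the 13 introns of Enah-211, held 26.9% and 15.2%. Enah-207, with 283 nt of intron 3, held 10.1% and 5.53%. Both were lower in replicate 2. The intervals of Enah-208 did not overlap between the libraries (2.35 to 3.28 and 1.18 to 1.90 TPM), but its scaled difference of -0.82 on the log2 scale stayed under 2-fold. By reads rather than TPM, the retained-intron models held only 12.1% and 8.90% of the gene, since they are short. Total RNA also contains unspliced RNA, and its part in these models was not tested.

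Relatives and partners of Enah were more abundant than Enah itself in all but 1 case. All 9 listed were detected, the highest being the actin-binding profilin Pfn1 at 1666 and 1751 TPM and the lowest Apbb1ip at 1.72 and 1.36 TPM. The Ena/VASP relatives Vasp and Evl were at 97.2 and 96.1 TPM and at 21.8 and 21.6 TPM, against 10.6 and 10.2 TPM for Enah.

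Slk was made almost wholly without its variable exon. The 93-nt exon was included at 3.63% and 5.71% (4.67 ± 1.46), with 36.5 and 55.7 estimated reads on Slk-202, the only model that has it. Slk-201, without the exon, held 75.9% and 72.0% of the TPM (8.75 and 9.09 TPM). The opposite ends of the intervals gave 1.77% to 6.91% and 2.79% to 9.69%, so inclusion stayed under 10% in both libraries. Slk-202 is 4239 nt long and Slk-201 7278 nt, and beside the exon they differ in 3132 nt. The retained-intron model Slk-203, which covers the whole of the 204-nt intron 10, held 13.7% and 11.6%.

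Numb is spliced at an exon of its PTB domain, the 33-nt exon, and at one of its proline-rich region, the 147-nt exon. The 33-nt exon was included at 36.4% and 25.4% (30.9 ± 7.77). Its values rest mainly on Numb-208, a 644-nt model cut at its 3′ end that held 27.5% and 19.1% of the TPM with 138 and 78.6 estimated reads. The rest came from Numb-202, a model for nonsense-mediated decay at 0.53 TPM in replicate 1 and 0 in replicate 2. The only complete coding model of Numb above 0 TPM, Numb-204, lacks the exon. The opposite ends of the intervals ran from 22.5% to 50.3% and from 8.71% to 41.8%, so the libraries did not separate.

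The 147-nt exon of Numb, known from proliferating progenitor cells, was included at 21.6% and 17.5% (19.6 ± 2.88). All of this came from models annotated for nonsense-mediated decay, chiefly Numb-203 at 4.32 and 3.66 TPM. The complete coding models that contain the exon, Numb-207 and Numb-210, were at 0 TPM in both libraries. They are 1962 and 1929 nt long, 3 nt more than their coding sequence, so they hold no room for reads beyond the stop codon, whereas Numb-203 is 3435 nt long and the main form Numb-204, which lacks the exon, 3549 nt. Numb-204 held 50.8% and 56.1% of the TPM (17.6 and 17.2 TPM). Inclusion of the 147-nt exon was 0% in both libraries when only coding transcripts were summed. Reads were thus assigned to models with the exon in both libraries, none of them to a complete coding model.

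A further 75-nt exon of Numb was included at 100% in both libraries. The retained-intron model Numb-205, of 441 nt, held 7.64% and 12.8%, and Numb-203 held 12.5% and 11.9%. Numbl, the close relative of Numb, was at 20.1 and 19.8 TPM.

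Arhgef11 was split between transcripts that differ in internal exons and in other stretches. Arhgef11-201 held 50.2% and 47.0% of the TPM (7.53 and 5.98 TPM), Arhgef11-202 held 30.3% and 28.8% (4.55 and 3.67 TPM), and the retained-intron model Arhgef11-203 held 16.5% and 15.8%. The 120-nt exon was included at 69.2% and 71.2% (70.2 ± 1.39) and the 30-nt exon at 37.7% and 38.0% (37.8 ± 0.258). Both values hardly differed between the libraries. Since Arhgef11-201 has the 120-nt exon without the 30-nt exon, and Arhgef11-202 the reverse, the 2 values reflect much the same pair of transcripts. Arhgef11-202, the only model with the 30-nt exon, is a coding model cut at an end. Beside that exon it differs from Arhgef11-201 in 1209 nt. The 127-nt exon, whose length would shift the frame, was included at 95.1% and 84.7% (89.9 ± 7.33). These values leave out Arhgef11-202, in which the exon follows the 30-nt exon. With every model that has the exon counted, and any spanning intron taken as skipping, the mean was 93.4%. The 127-nt exon is absent from Arhgef11-205, a model for nonsense-mediated decay, which was at 0.39 and 1.08 TPM with overlapping intervals. The opposite ends of the intervals gave inclusion from 84.6% to 99.9% and from 71.1% to 96.1%, so the libraries did not separate. The exon near the carboxyl end of Arhgef11 that is known from mesenchymal cells is not a cassette exon in the models used and was not analysed here. Its relative Arhgef12 was at 6.65 and 6.55 TPM.

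Epb41l5 has a short and a long carboxyl end, and the short end prevailed. Transcripts with the short end, Epb41l5-201 and Epb41l5-208, held 68.4% and 68.2% of the complete coding TPM (68.3 ± 0.143), and those with the long end, Epb41l5-203 and Epb41l5-202, held 31.6% and 31.8%. The widest ranges from the intervals, 63.5% to 73.1% and 62.5% to 74.0% for the short end, did not reach those of the long end, 26.9% to 36.5% and 25.99% to 37.5%. The forms share 1334 coding nt, after which 178 nt are particular to the short form Epb41l5-201 and 859 nt to the long form Epb41l5-202.

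Within each end the transcripts varied more. Epb41l5-201 held 52.9% and 51.3% of the TPM (20.4 and 18.7 TPM) and Epb41l5-208 10.8% and 10.1%. Epb41l5-203 held 18.3% and 13.9% and Epb41l5-202 held 11.1% and 14.8%. In replicate 2 their intervals overlapped (3.71 to 6.08 and 4.70 to 5.84 TPM), so a change of order between the libraries was not established. Epb41l5-203 and Epb41l5-202 differ by 24 coding nt and by their ends. A 79-nt exon of Epb41l5 was included at 98.2% and 98.7%. Crb3 and Patj, of the Crumbs complex, were at 48.1 and 46.3 TPM and at 19.9 and 18.9 TPM.

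The high level of Ralgps2 rested largely on a short model. Ralgps2-210, a 336-nt model cut at its 3′ end, held 46.8% and 40.7% of the TPM (32.6 and 23.7 TPM) on 204 and 138 estimated reads of the 3613 and 2933 of the gene. Coding models cut at an end held 48.6% and 41.8% of the TPM of Ralgps2 but 6.18% and 5.001% of its reads, and complete coding models 37.1% and 39.7% of its TPM and 80.6% and 81.8% of its reads. The complete coding model with the most reads, Ralgps2-204, held 13.6% and 15.3% (9.46 and 8.91 TPM), and the retained-intron model Ralgps2-208 held 4.12% and 10.2%.

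**Figure D3:**
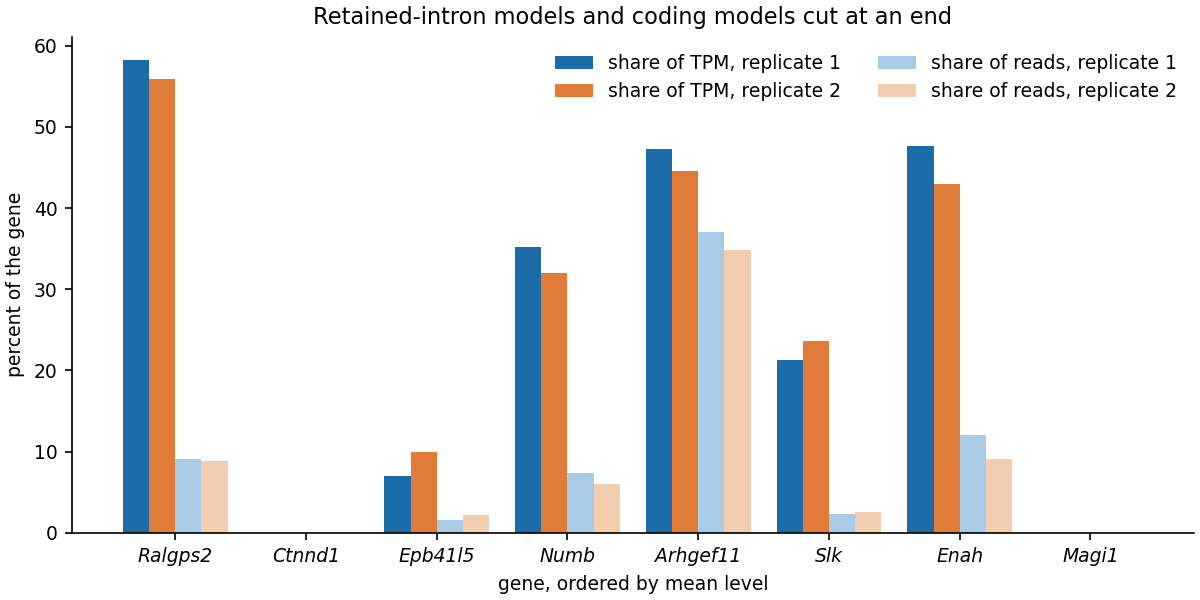
Percent of each gene (vertical axis, from 0) held by retained-intron models and by coding models cut at an end, as a share of TPM (dark bars) and of estimated reads (light bars), for each gene (horizontal axis) and library. In Ralgps2 such models hold 58.2% and 55.8% of TPM but 9.14% and 8.87% of reads, and in Ctnnd1 and Magi1 they hold 0.

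The 78-nt exon of Ralgps2 was included at 66.2% and 70.0% (68.1 ± 2.72), with ranges from the intervals of 48.3% to 81.4% and 52.6% to 84.01%. A 105-nt exon carried chiefly by Ralgps2-210 was included at 85.0% and 82.2%, and another 105-nt exon, of the decay model Ralgps2-215, at 10.8% and 9.89%. The complete coding models ended at 4 places, which held 66.5% and 64.8%, 17.7% and 15.6%, 13.4% and 17.9%, and 2.40% and 1.77% of their TPM. The ends kept a clear leader, that of Ralgps2-204, in both libraries. Its targets Rala and Ralb were at 49.3 and 50.5 TPM and at 223 and 213 TPM, and its relative Ralgps1 at 3.82 and 3.31 TPM.

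Magi1 was represented by 3 transcripts. Magi1-202 held 61.7% and 56.4% of the TPM (3.99 and 3.61 TPM) and Magi1-201 31.9% and 36.7% (2.07 and 2.35 TPM), with intervals that overlapped in 1 library. The 84-nt and the 36-nt exon were each included at 68.0% and 63.3% (65.6 ± 3.34), which is a single measurement, since the same transcripts have both. The 168-nt exon, at 65.8% and 60.6%, and the 89-nt exon, at 32.0% and 36.7%, separate largely the same transcripts. The 89-nt exon changes the frame, and Magi1-201, which has it, stops at a different codon: the end of Magi1-202 and Magi1-203 held 68.0% and 63.3% of coding TPM and that of Magi1-201 32.0% and 36.7%. A longer variant of the 168-nt exon, of 204 nt and present in Magi1-203 only, was at 16.5% and 15.8% against skipping. This value rests on the M21 model of Magi1-203, which is 4598 nt long, whereas the transcript is listed with 7179 nt in the tables. The values for the 84-nt, 36-nt and 89-nt exons and for the coding starts and ends also count Magi1-203 by this M21 model. The annotation M21 holds 11 models of Magi1, 8 more than the tables, so other forms were not analysed here. Of the 13 relatives and partners of Arhgef11, Slk, Numb, Epb41l5, Ralgps2 and Magi1 that matched a listed symbol, 11 were detected. Magi3 was at 4.63 and 4.29 TPM and Magi2 at 0.92 and 0.65 TPM.

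The variable exons of the 8 genes were next set beside those of all genes. The models held 30 cassette exons, of which 26 were coding and had at least 1 TPM of both forms together in each library. Every one of the 8 genes had at least 1, from 1 in Slk and Epb41l5 to 5 in Ctnnd1, Enah and Magi1, and the median was 3, where 42.0% of the 9416 genes had any. The 8 genes also had more annotated transcripts, with a median of 10 against 5. Of the 26 exons, 22 have a length that is a multiple of 3, which keeps the frame, against 52.8% of the 6728 such exons of all genes. Intermediate inclusion, from 10% to 90%, was seen for 16 of the 26, against 38.9% of all exons. A further 7 were under 10% and 3 over 90%. Some of the 26 overlap or share transcripts, so they are not independent. The 8 genes were chosen for known differences in splicing, so these counts follow in part from the choice.

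Inclusion differed by 10 points or more between the libraries for 2 of the 26 exons, the 33-nt exon of Numb and the 127-nt exon of Arhgef11, against 11.3% of all exons. The median gap was 1.59 points against 1.49 points. The gap between the libraries was under 3 points for the 63-nt exon of Ctnnd1, the 63-nt exon of Enah and the 93-nt exon of Slk, and inclusion of the Ctnnd1 exon lay above that of the others in both libraries with no overlap of the ranges from the intervals.

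**Figure D4:**
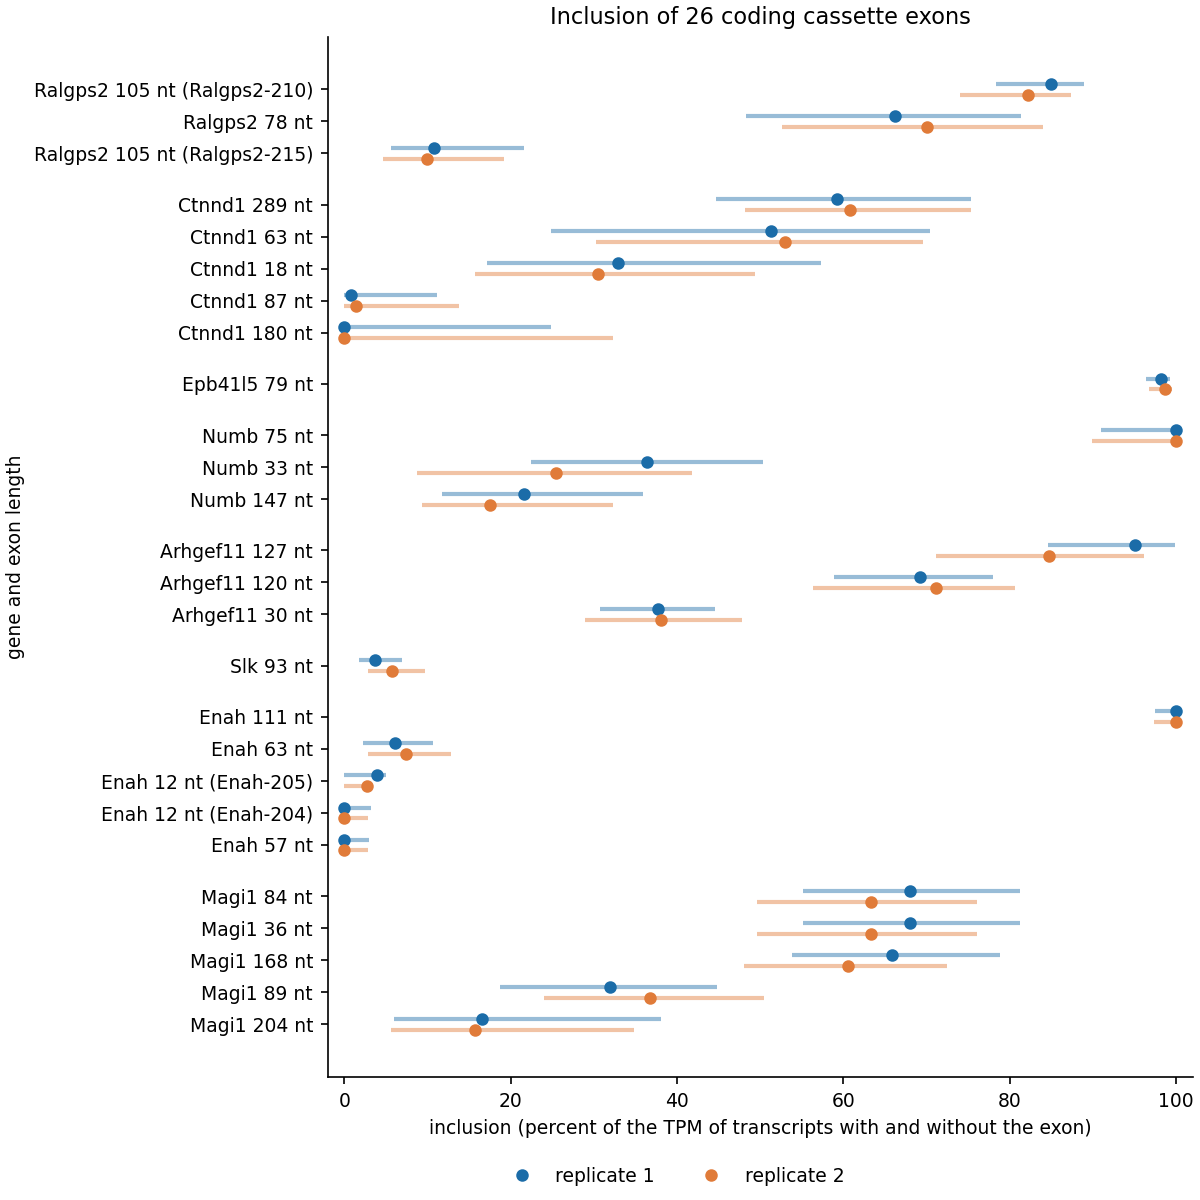
Inclusion in percent (horizontal axis) of 26 coding cassette exons (vertical axis, gene and exon length) in both libraries; bars span the values with the deposited intervals taken at their opposite ends. The 63-nt exon of Ctnnd1 is near the middle at 51.3% and 52.9%, while the 63-nt exon of Enah and the 93-nt exon of Slk are under 10%.

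**Figure D5:**
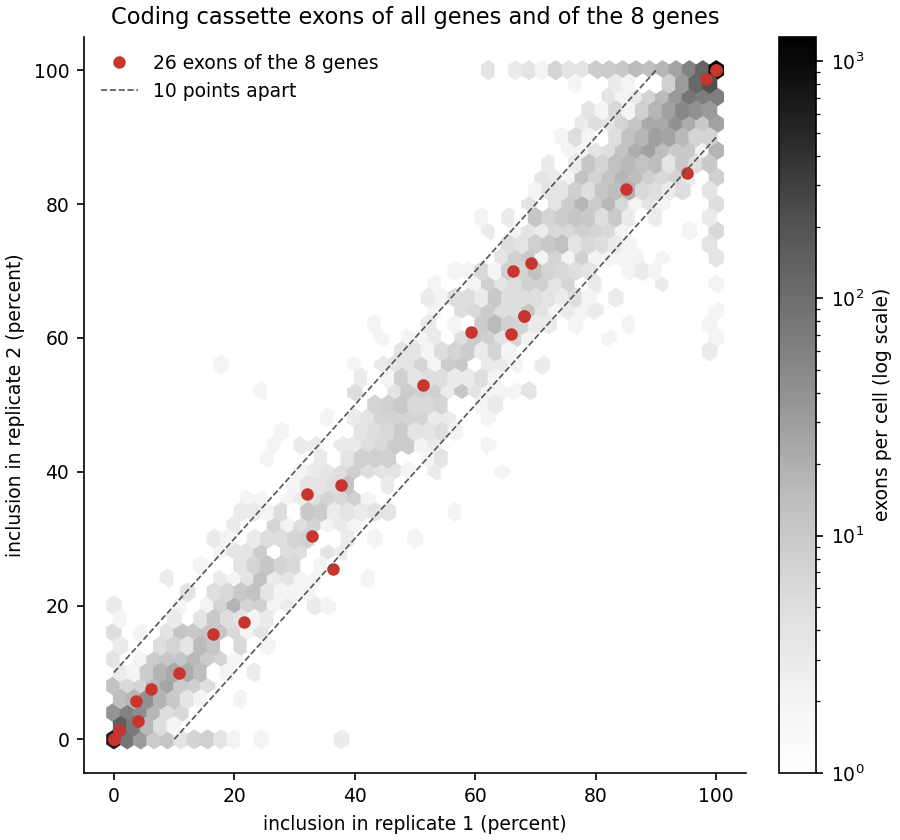
Inclusion in replicate 1 (horizontal axis, percent) against replicate 2 (vertical axis, percent) for all 6728 coding cassette exons (grey, exons per cell on a log scale) and the 26 of the 8 genes (red); dashed lines mark 10 points. Of the 26, 2 lie beyond the lines, both with higher inclusion in replicate 1.

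Splicing factors known from epithelial and from mesenchymal cells were detected side by side. Of 20 listed splicing factors, 16 were detected, the highest being Ptbp1, a repressor of many exons, at 305 and 306 TPM, and the lowest Rbfox3 at 0.24 and 0.17 TPM. Rbfox1, Rbfox3, Nova1 and Nova2, better known from neurons, were the 4 that were not detected. Esrp1 and Esrp2, the epithelial regulators, were at 24.96 and 22.6 TPM and at 37.2 and 36.5 TPM. Rbfox2, which acts on many of the same exons, was at 20.96 and 20.8 TPM, and Qk, active in mesenchymal splicing, at 28.1 and 26.2 TPM. Rbm47, an epithelial factor, was at 23.1 and 17.9 TPM. All 20 other listed genes with epithelial or mesenchymal exons were detected, with a median of 37.4 and 35.6 TPM. The growth factor receptor gene Fgfr2, the best known of them, was the highest of the list at 149 and 133 TPM, and Osbpl3, at 3.99 and 4.02 TPM, the lowest.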

How the data were processed

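Total RNA of both pools, extracted with molecules over 200 nt kept, was sequenced from 10 ng of RNA per library, per the labels. The authors deposited expected counts, which are estimated reads that need not be whole, and TPM values per gene and per transcript, per the file headers. A deposited percent states how much of the TPM of a gene each of its transcripts holds. The deposited intervals, whose level is not stated, lie around the posterior mean TPM rather than the TPM, so a TPM can fall outside its interval. A text deposited with the files names mm10 and GENCODE M4. For the program, its version and the use of strand, the sources used here give nothing.

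Identifiers without version were matched to GENCODE M21 (GRCm38), which gave exons, coding positions and names: 94 of 94 member transcripts matched, 1 of them, Magi1-203, with another length, and 101510 of 103639 in all. A cassette exon is an internal exon that another transcript of the gene skips with an intron joining the same neighbouring edges. Inclusion counts only transcripts with the exon between those edges or with that intron. Expected counts were rounded for TMM scaling (edgeR 4.0.16, R 4.3.3) and size factors (DESeq2 1.42.0). Wide ranges of inclusion or share set every transcript at the opposite end of its interval. Counting 3 reads as the limit that a count of 0 allows, a transcript of 1 kb at 0 could reach 0.113 and 0.122 TPM. This limit covers counting only, and the intervals cover counting and read assignment only, since the reads carry no molecular identifiers. Ctnnd1-216, at 0 TPM in both libraries, had limits of 0.0194 and 0.0209 TPM but interval upper ends of 1.69 and 2.08 TPM. The counts differed by more than sampling noise (over 19397 genes, chi-square divided by its degrees of freedom was 6.65), and the libraries were treated as separate. With 2 libraries of 1 group no test between conditions was made, and no p-value is given. The scripts were checked on simulated data.

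The members, lists and rules were chosen with earlier results of these data known. All 8 genes are named, with each transcript of 10% or more of the TPM of its gene, each coding cassette exon with at least 1 TPM of both forms together in each library, and the highest, the lowest and the direct partners among list genes. Alternatives were posterior mean TPM, other minimums, protein-coding transcripts only, any spanning intron as skipping, other scalings and leaving out either library.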

Additional observations from a re-analysis of the deposited data

How the results depend on the processing

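Of 71 values recomputed from posterior mean TPM, 51 moved by no more than the SD of the libraries and 20 by more. The level moved to 11.1 TPM for Enah and 6.31 TPM for Magi1. Transcript shares moved to 42.2% for Ctnnd1-202, 20.5% for Ctnnd1-204, 44.4% for Enah-211, 50.9% for Epb41l5-201 and 11.3% for Numb-203. Coding-start shares moved to 31.3% for the third start of Ctnnd1 and 99.2% for the start of Enah-211. Those of the starts of Magi1-202 and Magi1-203 moved to 92.6% and 7.45%. The share of the second start of Ctnnd1 was not among the 71 values. Inclusion moved to 3.32% for the 87-nt and 8.18% for the 180-nt exon of Ctnnd1, 61.2% for its 289-nt exon, 99.2% for the 111-nt exon of Enah, 0.883%, 0.803% and 1.59% for its 12-nt exon of Enah-204, its 57-nt exon and its 12-nt exon of Enah-205, 18.1% for the 204-nt exon of Magi1 and 96.9% for the 75-nt exon of Numb. Summing protein-coding transcripts only moved 8 of 26 inclusion values: to 62.2% and 100% for the 120-nt and 127-nt exons of Arhgef11, 49.9% and 61.7% for the 63-nt and 289-nt exons of Ctnnd1, 100% for the 79-nt exon of Epb41l5, 76.3% for the 78-nt exon of Ralgps2, and 0% for the 105-nt exon of Ralgps2-215 and the 147-nt exon of Numb. These protein-coding sums kept coding models cut at an end. Only such models carried the 30.3% for the 33-nt exon of Numb and the 37.8% for the 30-nt exon of Arhgef11. They chiefly carried the 82.7% for the 105-nt exon of Ralgps2-210. Counting any spanning intron as skipping moved 3 of 26, to 35.3% for the 30-nt exon of Arhgef11 and to 0.293% and 55.99% for the 180-nt and 289-nt exons of Ctnnd1. Leaving out either library moved 0 of 144 values, which follows from the SD of 2 values being wider than the distance of each from their mean. The number of member transcripts detected was 39 with a minimum of 0.5 TPM and 26 with 2 TPM. With DESeq2 size factors, no scaling, a mean of at least 5 TPM or no minimum, 0 member genes and 0 member transcripts were apart. Over all features, 41 genes and 67 transcripts were apart with the mean of at least 5 TPM, and 337 and 658 with no minimum, against 162 and 292. No paired analysis was possible because the libraries form a single group. Depth limits the low inclusion values: transcripts with the 63-nt exon of Enah or the 93-nt exon of Slk had 31.1 to 55.7 estimated reads, and the transcript with the 12-nt exon of Enah-205 had 27.7 and 16.8.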
